A study of Rattus norvegicus with 4 samples.

Results

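Haemoglobin, haem synthesis and platelet genes were followed here through 6 genes: the beta-globin genes Hbb and Hbb-b1, the haem synthesis genes Alas2 and Alas1, and the platelet chemokine genes Ppbp and Pf4. They were picked by name, with their ratios on these arrays already known, from 16451 named genes, and each had 1 probe among the 41012 on the array. The array's annotation gives Hbb-b1, Ppbp and Pf4 under older names (MGC72973, Cxcl7 and Cxcl4), which were resolved through their accessions. Of the 6 probes, 5 were bright enough to be tested and Pf4 was not. Because the choice rests on these ratios, the values of the 6 genes are given as a description, with no test.

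The RNA came from colon mucosa of rats of the inbred strain F344, all of which drank water with 5% dextran sodium sulphate (DSS) for 5 days. DSS damages the lining of the colon and serves as a model of colitis. The resveratrol rats had first received that plant polyphenol with their feed for 20 days, at a daily 1 mg per kg of body weight, while control rats ate standard chow ahead of the same DSS. On each of 4 two-colour arrays, RNA of 2 resveratrol rats (8 rats in all) was labelled with Cy5 and a pool of control RNA with Cy3. The pool therefore counts as 1 control sample, and its own spread was not measured. It enters no error or p-value given here, apart from an assumed error in the setting with a wider standard error. No array had the dyes exchanged, so dye and treatment cannot be told apart. Arrays 1 and 2 shared slide 1, and arrays 3 and 4 shared slide 2. The ages and sex of the rats, and how many rats the pool held, are not given in the sources used here.

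Haemoglobin is the oxygen carrier of red cells, built from alpha-globin and beta-globin chains that each hold a haem group. Haem synthesis starts with aminolevulinate synthase, of which Alas2 encodes the erythroid form and Alas1 the form used in other tissues. Ppbp and Pf4 encode CXC chemokines that platelets store in their granules and release on activation. Maturing red cells still hold globin and Alas2 transcripts, and platelets carry Ppbp and Pf4 transcripts from the megakaryocyte, so a piece of colon mucosa carries these RNAs with the blood it holds.

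The probes decide which transcripts a ratio speaks for, so their sequences are shown first. In the rn3 build named by the file headers, the Hbb-b1 probe lies at chr1:161671970-161672029 and the Hbb probe at chr1:161701424-161701483, both on the minus strand and 29454 bases apart. The array's annotation lists the Hbb-b1 probe under both Hbb and Hbb-b1. Rat beta-globin genes form a cluster of close copies, and reads of one copy by the probe of another cannot be separated on this array. The Hbb probe begins in the first exon and matched the RefSeq start of the Hbb transcript (GRCr8) over all 50 bases that the promoter table covers. Against Hbb-b1 it matched 39 of the 45 bases covered. The first 30 bases of the probe's match are printed from RefSeq, with bases that differ from the probe in capitals, at chr1:167663692-167663721 for Hbb and chr1:167643486-167643515 for Hbb-b1 (GRCr8, minus strand).

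Hbb: tgcttctgacatagttgtgttgactcacaa
Hbb-b1: tgcttctgaTaCTgttgtgttgactcGcaa

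Over these 30 bases the Hbb gene matched the probe fully and Hbb-b1 matched it at 26 positions. Hbb-b2, Hbbl1 and Hbb-bs, the other beta-globin copies with a listed start, carried the same 30 bases as Hbb-b1. A ratio from the Hbb probe therefore belongs first to Hbb, and how far the copies also bound to it was not tested.

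The probes of Alas2 (chrX:39863822-39863881, plus strand), Ppbp (chr14:18816439-18816498, minus strand) and Pf4 (chr14:18812555-18812614, minus strand), with rn3 positions, are shown as deposited, as is that of the alpha-globin gene Hba-a3 (chr10:15560180-15560237), which is no member but encodes the partner chain of beta-globin.

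Alas2: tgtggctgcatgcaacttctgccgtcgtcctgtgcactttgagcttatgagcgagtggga
Ppbp: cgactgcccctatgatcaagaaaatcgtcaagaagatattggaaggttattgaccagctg
Pf4: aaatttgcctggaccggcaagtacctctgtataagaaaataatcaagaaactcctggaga
Hba-a3: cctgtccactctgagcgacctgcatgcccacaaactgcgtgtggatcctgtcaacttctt

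The Ppbp and Pf4 probes lay 3884 bases apart, since both genes sit in 1 chemokine cluster. Guanine and cytosine made up 31.7% of the Hbb-b1 probe, against a median of 45.0% over the 18896 probes tested, and 99.1% of those probes held more. For Alas2 and Hba-a3 the share was 55.0%, and for Hbb and Alas1 it was 45.0%.

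Every value below is a log2 ratio of the resveratrol + DSS sample over the DSS control pool, after background correction and loess normalization within each array, so 0 means equal signal and negative values mean lower with resveratrol. The share of spots well above background ran from 44.1% to 49.2% in the resveratrol channel and from 42.8% to 57.1% in the pool channel. Over all tested probes the arrays correlated with each other at r between 0.70 and 0.89, as a description across probes. In a limma fit of the mean ratio against 0, with Benjamini-Hochberg adjustment over all 18896 probes at 0.05, 24.3% of probes were higher and 22.7% lower (47.1% either way), which is the background for any count of called probes. Of the 5 members tested, 4 were called lower and Alas1 was not called; these genes were chosen on the same ratios, so nothing is read from that count. Taking only the brightest probe of a gene, 25.6% of the 10003 genes were higher, 19.5% were lower, and the median gene was at 0.01. With 4 arrays, their number limits the precision of every mean.

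The beta-globin genes showed the lowest ratios of the 6. Hbb-b1 had log2 ratios of -3.39, -2.82, -3.61 and -3.31 on arrays 1 to 4. All 4 lay far below 0, with array 2 the least negative. The mean was -3.28 ± 0.33 (SD, n = 4), or 9.72-fold lower with resveratrol than in the pool. In normalised log2 signal, the probe read 10.8, 10.9, 10.3 and 10.1 in the resveratrol samples, against 13.8 on average (SD 0.33) in the pool channel, and the channels did not overlap. The scanner's own signals before any correction already stood apart: 2815, 3237, 1010 and 2141 in the resveratrol channel, against 9231, 13513, 7537 and 9682 in the pool channel.

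**Figure D1:**
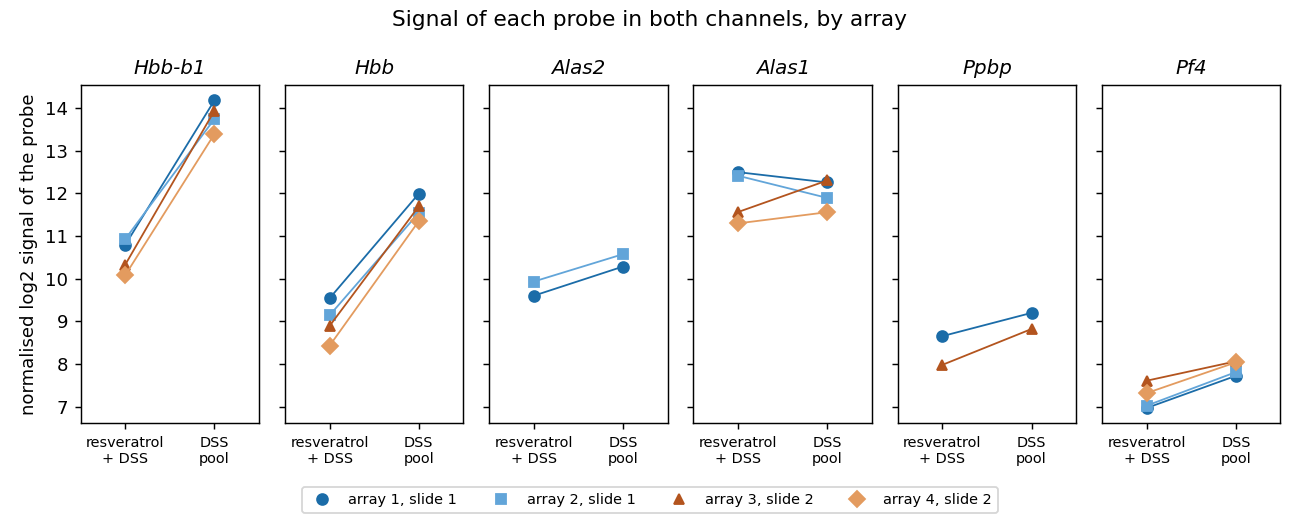
Normalised log2 signal of each gene's probe in the resveratrol + DSS channel (left) and the DSS pool channel (right), with a line for each array and no line where the spot was flagged as an outlier. Hbb-b1 and Hbb climb steeply toward the pool on all 4 arrays, whereas the lines of Alas1 cross, 2 sloping each way; levels of different probes are not comparable.

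Hbb, a second beta-globin gene of the cluster, had log2 ratios of -2.45, -2.40, -2.81 and -2.92. Both arrays of slide 2 were lower than both arrays of slide 1. Its mean was -2.65 ± 0.26 (SD, n = 4), 6.26-fold lower, with mean log2 signals of 9.0 ± 0.47 in resveratrol samples and 11.6 ± 0.27 in the pool channel. The Hbb-b1 ratio was below the Hbb ratio on each array, by -0.93, -0.41, -0.80 and -0.39, a mean difference of -0.64 ± 0.28 (SD, n = 4). The slides gave means of -3.10 and -3.46 for Hbb-b1 and of -2.43 and -2.86 for Hbb, for slides 1 and 2. When spots flagged as outliers were kept in the normalization, the means were -2.60 for Hbb-b1 and -2.33 for Hbb, and with arrays centred on their medians and no loess, which moved the median of all probes up by 0.23, they were -2.67 and -2.19. In such a bulk sample, fewer red cells and less globin RNA per red cell cannot be told apart.

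Alpha-globin transcripts were read by a single usable probe, which the array's annotation lists under Hba-a1, Hba-a2 and Hba-a3 and which is named here as Hba-a3, since neither Hba-a1 nor Hba-a2 has a probe of its own. Its ratios were -1.49, -1.55 and -1.44 on arrays 1, 2 and 4, and its spot on array 3 was flagged as an outlier. These 3 values lay within 0.06 of their mean of -1.50 (SD 0.06, n = 3; adjusted p = 0.00404), a fall of 2.82-fold, and the call held in all 16 alternatives. With the flagged spots kept, the ratios were -1.22, -1.41, -0.83 and -0.76, and their mean over 4 arrays was -1.05 (SD 0.31). The closeness of the 3 values therefore depended on leaving out flagged spots. Before any correction the signals were 9992, 9711, 2724 and 11641 in the resveratrol channel and 8505, 17020, 10642 and 16837 in the pool channel. On array 1 the resveratrol channel was thus the brighter one before normalization. Hba-a3 stood above both beta-globin ratios on each array it shared with them.

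Embryonic and fetal-type globin probes showed smaller ratios. Hbe2, an embryonic beta-like globin gene, fell to -0.42 ± 0.09 (moderated SE, n = 4; adjusted p = 0.0163), with -0.62 on array 3 and -0.34 to -0.35 on the others. Hbe2 lost its call without array 1 or 2 (adjusted p = 0.0604 and 0.0646), over alternatives that ran from 0.0131 to 0.238. The brighter Hbe1 probe had an outlier flag on every array, and with flagged spots kept it read -0.56 on average. The other Hbe1 probe, too dim to be tested, was at 0.06 ± 0.37 (SD, n = 3). Hbg1 was at -0.09 ± 0.09 (SD, n = 4) and was too dim to be tested. One further probe, placed 1046 bases from the Hbb probe within the locus and named in the files only by a sequence record of a beta-globin gene, had no channel well above background on any of the arrays.

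**Figure D2:**
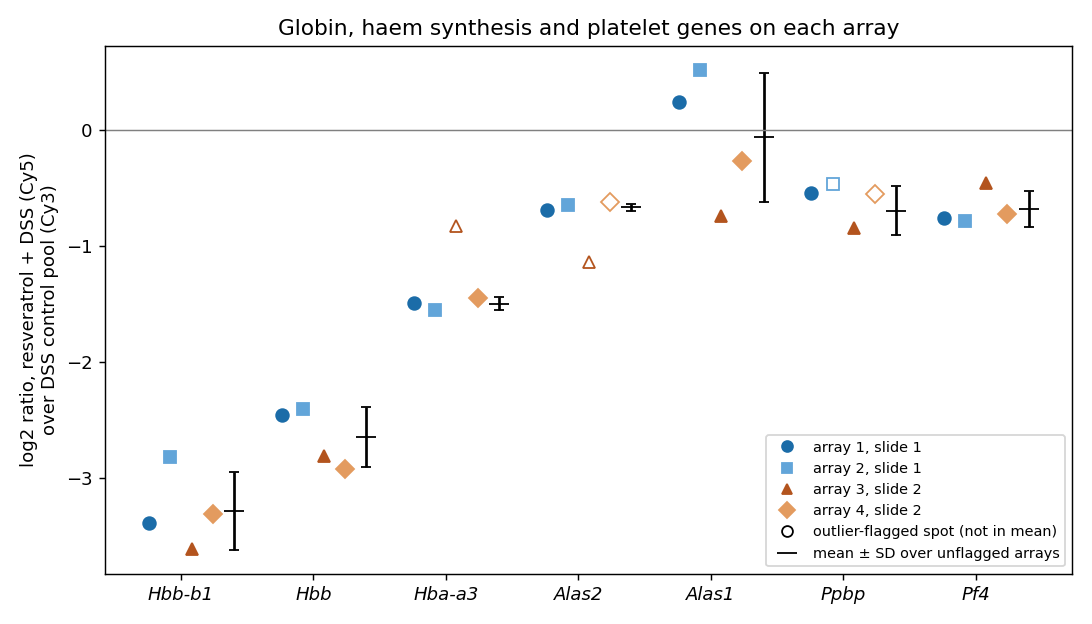
Log2 ratio of resveratrol + DSS over the DSS control pool for the 6 genes and the alpha-globin probe, by array; open symbols are spots flagged as outliers, read from the setting that keeps them, and bars give mean ± SD over unflagged arrays. Hbb-b1 and Hbb lie between -3.61 and -2.40, Hba-a3 near -1.50, Alas2, Ppbp and Pf4 between -0.45 and -0.84 where unflagged, and Alas1 on both sides of 0.

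The start sites of the beta-globin genes are printed because both probes lay so low. The 120 bases before the start of Hbb-b1 (chr1:167643521-167643640) and of Hbb (chr1:167663722-167663841), minus strand of GRCr8 from RefSeq, have 3 motifs in capitals wherever they match on either strand. One is CACCC, the next is CCAAT, and the last, standing for the TATA box, is ATAAA; mouse and human beta-globin promoters are known for elements of these kinds.

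Hbb-b1: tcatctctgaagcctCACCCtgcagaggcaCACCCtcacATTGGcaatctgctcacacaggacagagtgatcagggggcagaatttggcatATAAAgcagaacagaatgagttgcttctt
Hbb: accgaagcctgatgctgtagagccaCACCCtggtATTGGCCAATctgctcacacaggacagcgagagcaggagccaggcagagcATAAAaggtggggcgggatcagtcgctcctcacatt

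In Hbb a forward and a reverse CCAAT adjoin (ATTGG is CCAAT on the other strand). Over 250 bases before the start, both genes also held GATA, the core bound by the erythroid factor GATA1, at 1 position each. Such short matches are common: among 33469 RefSeq promoters of that length, CCAAT was found in 34.0%, CACCC in 49.2%, ATAAA in 39.3% and GATA in 55.9%. The promoter windows of Hbb and Hbb-b1 were 60.9% identical, whereas Hbb-b1 and Hbb-b2 were 97.2% identical. Alas2 held GATA only, Alas1 held CACCC only and Ppbp held ATAAA and GATA. These matches describe the letters and say nothing of binding in these samples.

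Alas2, which encodes the erythroid synthase that supplies haem for haemoglobin, had log2 ratios of -0.68 and -0.64 on arrays 1 and 2, its spots on arrays 3 and 4 being flagged as outliers. The mean of -0.66 ± 0.03 (SD, n = 2) therefore rests on slide 1 alone and corresponds to 1.58-fold lower signal with resveratrol. With flagged spots kept, the ratios were -0.62, -0.54, -1.13 and -0.62, all below 0, with array 3 the lowest. With median centring the mean was -0.29. Before any correction the signals of Alas2 were 1351, 1827, 330 and 1212 in the resveratrol channel and 783, 1743, 825 and 1335 in the pool channel, so that on arrays 1 and 2 the resveratrol channel was the brighter one before normalization.

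Alas1, the form of the enzyme that non-erythroid cells use, differed between slides in sign. Its ratios were 0.24 and 0.52 on slide 1 and -0.74 and -0.26 on slide 2. The mean was -0.06 ± 0.56 (SD, n = 4), so the spread exceeded the mean. Its log2 signal was 12.5, 12.4, 11.6 and 11.3 in resveratrol samples, against 12.3, 11.9, 12.3 and 11.6 in the pool channel, and the channels overlapped. The direction depended on the normalization: with flagged spots kept the mean was 0.59 ± 0.12, with ratios of 0.45, 0.66, 0.72 and 0.52, and under median centring it was 0.54. No direction is given for Alas1.

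Ppbp, encoding the precursor of a platelet chemokine that attracts neutrophils, had log2 ratios of -0.55 on array 1 and -0.84 on array 3, with outlier flags on the other pair. Its mean was -0.69 ± 0.21 (SD, n = 2), 1.62-fold lower with resveratrol. With flagged spots kept the ratios were -0.53, -0.47, -0.79 and -0.55, all below 0. Before any correction the signals of Ppbp were 703, 854, 149 and 501 in the resveratrol channel and 420, 796, 284 and 490 in the pool channel. On arrays 1, 2 and 4 the resveratrol channel was therefore the brighter one before normalization. Mean log2 signal was 8.32 ± 0.48 in resveratrol samples and 9.01 ± 0.27 in the pool channel.

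Pf4, encoding platelet factor 4, had ratios of -0.75, -0.79, -0.45 and -0.72. All 4 lay below 0 and the mean was -0.68 ± 0.15 (SD, n = 4). The resveratrol channel was well above background on 0 of 4 arrays and the pool channel on 2 of 4, hence Pf4 was not tested. Its fold is given as a bound of 1.60-fold lower. Such bounds compare the pool mean with the dimmest signal that still counts as well above background, or with the dim probe's own signal where that is higher, and can carry dye bias. For Pf4 the bound equals the fold of the measured mean. Every bound given here holds under this processing only. Without background correction the mean of Pf4 was -0.62, and on slide 2 alone it was -0.59. Before any correction its resveratrol channel was the brighter one on array 1 (195 against 176). The scanner's processed signals, median centred, gave Pf4 a mean of -1.93.

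The genes whose ratios lay nearest to Hbb-b1 and Alas1 over the 4 arrays were found by root-mean-square difference among 7427 genes with values on all arrays. Nearest to Hbb-b1 were S100a8, at a difference of 0.45, then Hbb at 0.68 and Mgp at 0.75. S100a8 encodes a calcium-binding protein of neutrophils and Mgp a matrix protein, and their mean ratios were -3.17 and -2.76. Nearest to Alas1 were Rhoa at 0.11, Rps18 at 0.15 and Aldh1a3 at 0.17, each above 0 on both arrays of slide 1 and below 0 on both arrays of slide 2. All these ratios share the same control pool and dye orientation, and likeness over 4 arrays is a description only.

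Other genes of haem synthesis, transport and breakdown did not share a direction. Of 26 genes in the list 21 were tested, with 4 called higher (19.0%), 4 called lower (19.0%) and 13 not called, against 25.6% and 19.5% of all genes, and the list's median was 0.16 against 0.01 over all genes. Slc25a38, the mitochondrial carrier thought to bring in the glycine used by the synthase, rose to 0.65 ± 0.11 (moderated SE, n = 4; adjusted p = 0.00849), with 0.59, 0.96, 0.62 and 0.43 on arrays 1 to 4. Urod, which acts in the middle of the pathway, rose to 0.55 ± 0.16 (n = 4; adjusted p = 0.0341), with array 4 at 1.11 and the others between 0.23 and 0.52, while its other probe gave 0.26 and was not called. Fech, which inserts the iron, rose to 0.34 ± 0.11 (n = 4; adjusted p = 0.04) and was lost when any 1 array was left out (adjusted p between 0.0646 and 0.106). Urod was likewise lost without array 1, 2 or 4 (adjusted p = 0.0877, 0.0689 and 0.0501).

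On the lower side of the haem list, Blvrb, a biliverdin reductase abundant in red cells, fell to -0.72 ± 0.13 (moderated SE, n = 3; adjusted p = 0.0138). Its ratios were -0.96, -0.47 and -0.75 on arrays 1 to 3, and without array 1 the adjusted p was 0.0646. Abcb6, a porphyrin transporter, fell to -0.66 ± 0.10 (n = 4; adjusted p = 0.00684), with ratios from -0.90 to -0.49. Hmox1, the inducible haem oxygenase that opens the haem ring, fell to -0.49 ± 0.13 on arrays 1 and 2 only (n = 2; adjusted p = 0.0438), and under median centring stood at -0.03 (adjusted p = 0.927, the largest over its alternatives, which began at 0.00529). Uros was the other gene called lower and Hmox2 the other called higher; Uros was lost without array 1, 2 or 4 and Hmox2 without array 1 or 2. Alad, which acts just after the synthase, was at 0.20 ± 0.14 and was not called. Cpox, Hebp2 and Slc25a37 had no channel well above background on any of the arrays.

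**Figure D3:**
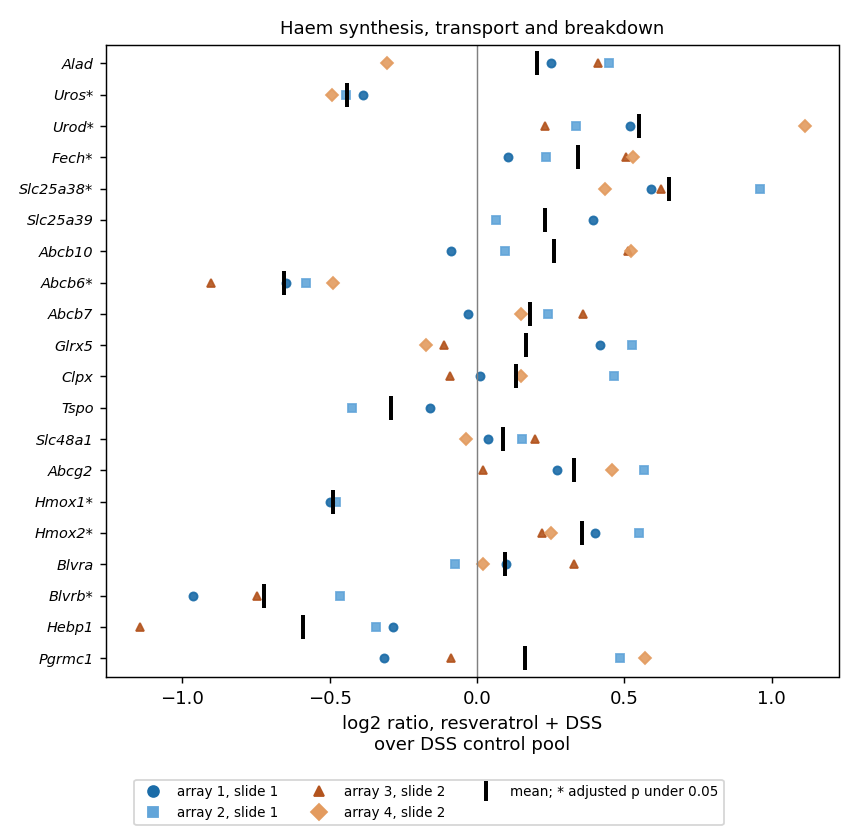
Log2 ratio of resveratrol + DSS over the DSS control pool for 20 of the 21 tested genes of haem synthesis, transport and breakdown, with synthesis enzymes at the top and breakdown below; symbols are arrays, bars are means and asterisks mark adjusted p under 0.05. Means fall on both sides of 0, between -0.72 for Blvrb and 0.65 for Slc25a38.

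These counts leaned on single arrays, as did the counts over all probes. Without array 1, 1 of 19 tested haem genes was lower and 1 higher, in place of 4 and 4 of 21. Without array 2, 2 of 19 were lower and 1 higher. Over all probes, 4295 lower and 4601 higher of 18896 became 1528 and 1956 of 16301 without array 1. Without array 2 they became 1421 and 1983 of 16410. With a standard error multiplied by the square root of 2, 1 haem gene was lower and 1 higher, beside 730 and 1460 of all probes. That setting assumes that the pool's error equals that of the mean of the 4 arrays. The real error of the pool is not known and may be larger.

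Genes reported to regulate Alas1 in liver or in cell lines were mixed too. Of 9 tested, 2 were higher (22.2%) and 2 lower (22.2%), against 25.6% and 19.5% of all genes, with a median of 0.03. Nr1d1 and Nr1d2 encode the REV-ERB repressors of the circadian clock. Nr1d1 rose to 0.88 ± 0.22 (moderated SE, n = 4; adjusted p = 0.025), and Nr1d2, whose pool channel was well above background on no array, was at least 1.73-fold higher (adjusted p = 0.0245). The mean log2 ratio of Nr1d2 ran from 0.45 to 1.79 over its alternatives, so its bound holds under this processing only. In the measured ratios of both genes, array 4 stood near 0 (0.02 each) and the other arrays between 0.87 and 1.37. Neither was called without array 1 (adjusted p = 0.0779 and 0.0793) or array 2 (0.0797 and 0.0802), and the pool channel of Nr1d1 was well above background on 1 array. Ppargc1a, a coactivator that raises Alas1 in mouse liver, was at 0.10 ± 0.10 and was not called. Foxo1 was called lower on 2 arrays (-0.94 ± 0.26; adjusted p = 0.0456, and 0.0637 without array 1), and the probes of Hif1a disagreed, at -0.61 and 0.32.

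Among erythrocyte genes beyond the members, 16 of 37 were tested, and 8 were called lower and 4 higher, against 19.5% and 25.6% of all genes. The list's median was -0.33. Its mean log2 signal over the tested genes lay between 9.36 and 10.3 in resveratrol samples and between 9.63 and 10.2 in the pool channel. Each array's mean takes only the genes unflagged on it, so the genes averaged differ between arrays. Beside Hba-a3, the lower genes included Hbe2, Epb42, Kel, Ahsp and Bnip3l, with means between -0.42 and -0.58. Ahsp encodes the chaperone that holds free alpha-globin. Kel lost its call in 5 of 16 alternatives (among them without array 1, 2 or 4), Ahsp in 3 of 16 (among them without array 2 or 4), Bnip3l, measured on 2 arrays, in 5 of 14, and Epb42 in 1 of 16.

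Not every erythrocyte gene was lower. Epor, the erythropoietin receptor gene, rose to 1.28 ± 0.16 on arrays 1 and 2, the only unflagged ones (moderated SE, n = 2; adjusted p = 0.0101). Slc4a1, encoding the anion exchanger band 3, rose to 1.23 ± 0.33 by its brightest probe (n = 4; adjusted p = 0.0283), with 2.32, 1.57, 0.24 and 0.78 on the arrays; its other probe gave -0.18 and was not called. Slc4a1 lost its call without array 1, 2 or 4 (adjusted p = 0.063, 0.0826 and 0.0523). Bpgm and Car2 were the other higher genes, and Car2, a carbonic anhydrase, is also made by colonocytes. Bpgm was lost without any 1 of the arrays, and Car2 without array 1 or 2. Gata1, the erythroid and megakaryocytic transcription factor gene, was at -0.18 ± 0.10 and was not called. Ank1, Klf1, Nfe2, Rhag, Tal1 and Trim58 were not well above background on any array. In limma without array 1, 5 of 14 tested erythrocyte genes were lower and 0 higher. Without array 2, 4 of 14 were lower and 0 higher. At an unadjusted p under 0.05, 2 were higher in either case. Without array 4, 2 of 16 were higher. Calls over all probes fell in each of these settings too.

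**Figure D4:**
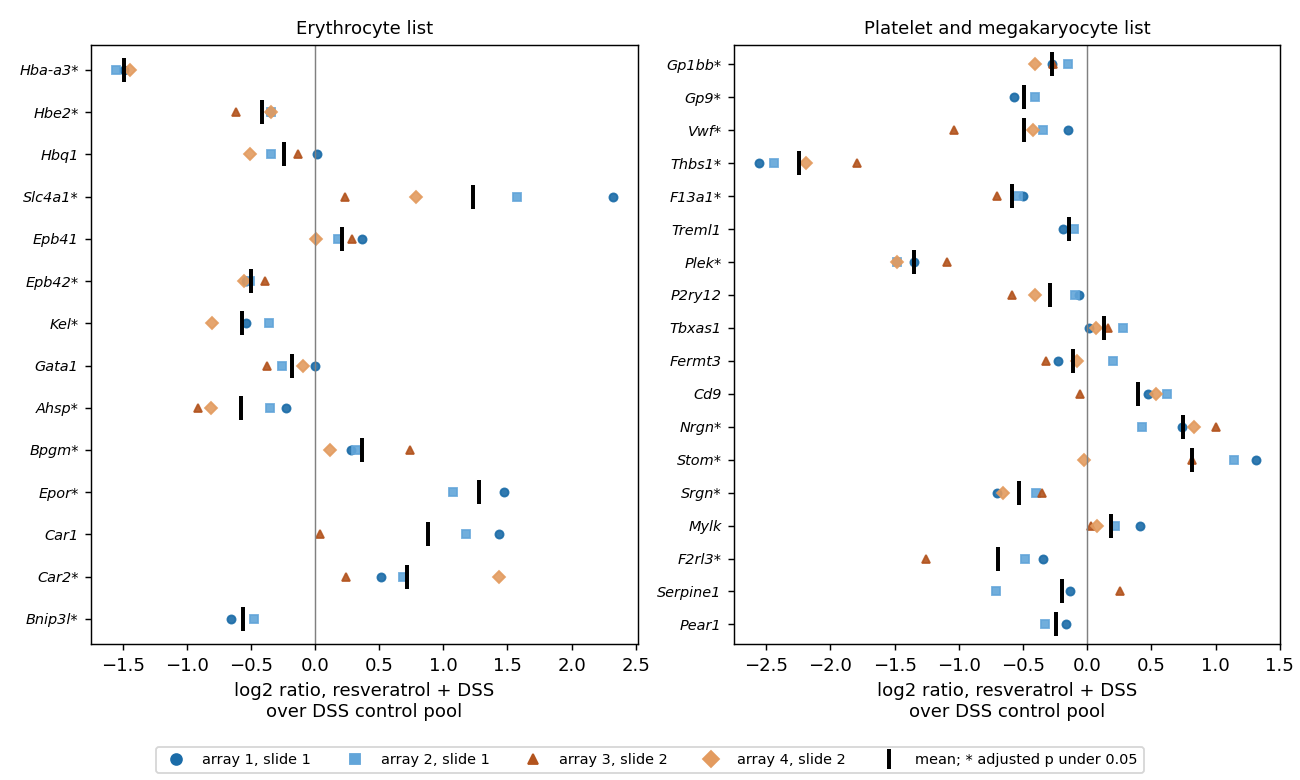
Log2 ratio of resveratrol + DSS over the DSS control pool for the tested genes of the erythrocyte list (left panel, 14 of 16 genes) and the platelet and megakaryocyte list (right panel, 18 of 19 genes); symbols are arrays, bars are means and asterisks mark adjusted p under 0.05. Hba-a3 and Thbs1 are the lowest, at -1.50 and -2.25, while Epor, Slc4a1, Nrgn and Stom lie above 0.

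Platelet and megakaryocyte genes beyond the members had 8 of 19 tested genes lower (42.1%) and 2 higher (10.5%), against 19.5% and 25.6% of all genes, with a median of -0.28. Mean log2 signal over these genes lay between 8.51 and 9.09 in resveratrol samples and between 8.86 and 9.34 in the pool channel. Here too the genes averaged differ between arrays, since flagged spots were left out. Thbs1, which encodes the granule protein thrombospondin and is also made by fibroblasts, fell to -2.25 ± 0.14 (moderated SE, n = 4; adjusted p = 0.00282), with ratios from -2.56 to -1.80. Plek, encoding the signalling protein pleckstrin of platelets and leukocytes, was at least 2.45-fold lower (adjusted p = 0.00388), the resveratrol channel being well above background on no array. On the higher side, Nrgn, encoding neurogranin, rose to 0.75 ± 0.11 (n = 4; adjusted p = 0.00702), and Stom, encoding the membrane protein stomatin, rose to 0.81 ± 0.22 (n = 4; adjusted p = 0.0297), with array 4 at -0.02. Stom lost its call without array 1 or 2 (adjusted p = 0.0905 and 0.0937).

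The lower platelet genes also included Gp1bb and Gp9, subunits of the receptor for von Willebrand factor, together with Vwf, F13a1, Srgn and F2rl3, with means between -0.28 and -0.69. Gp1bb lost its call in 10 of 16 alternatives, including without any 1 of the 4 arrays, Vwf in 9 of 17 and F2rl3 in 6 of 16, both of these without array 1, 2 or 4. F13a1 was lost in 3 of 16, among them without array 1 or 2, and Srgn in 4 of 17, among them without array 1. Gp9 rested on 2 arrays and was lost in 8 of 14 alternatives, over which its ratio ran from -0.68 to 0.00. Defining platelet genes such as Itgb3, Selp and Clec1b were not well above background on any array, and Itga2b and Gp1ba had no probe named in the files and were not analysed here. Without array 1, 2 of 16 tested platelet genes were lower and 1 higher. Without array 2, 3 of 16 were lower and 1 higher, and without array 4, 4 of 19 were lower. Calls over all probes fell in these settings as well.

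Of the globin genes expressed outside the red cell, all 3 tested were called lower, against 19.5% of all genes: Mb, the muscle oxygen store myoglobin, at -0.92 ± 0.23 (moderated SE, n = 4; adjusted p = 0.0223), Cygb, a globin of fibroblast-like cells, at -0.80 ± 0.13 (n = 4; adjusted p = 0.00778), and Ngb, the neuronal globin, at -0.52 ± 0.13 on 2 arrays (adjusted p = 0.0412). Mb was at -0.19 on array 1 and -1.43 on array 4, and was lost without array 2 or 4 (adjusted p = 0.0526 and 0.0645), while Ngb was at -0.05 under median centring. Among genes whose proteins clear haemoglobin and haem, 2 of 3 tested were called lower, against the same 19.5% of all genes. Cd163, the macrophage receptor for haptoglobin-haemoglobin complexes, fell to -0.76 ± 0.13 (n = 4; adjusted p = 0.00969), and Hp, encoding haptoglobin, fell to -0.54 ± 0.08 (n = 4; adjusted p = 0.0074). Lrp1, encoding the receptor that takes up haem bound to haemopexin, was at -0.17 ± 0.08 (n = 4; adjusted p = 0.125) by its brightest probe and was not called, while its other probe gave -0.43 (adjusted p = 0.0146). Hpx, the haem scavenger haemopexin, had no channel well above background.

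Ppbp and Pf4 belong to the CXC chemokines, of which 6 others were tested. All 6 had means below 0 and 3 of the 6 were called lower, against 19.5% of all genes. Their median was -1.17, against 0.01 over all genes. Cxcl12 of stromal cells was at least 4.06-fold lower under this processing (adjusted p = 0.00388), and its other probe gave -0.76. The bound equals the fold of the measured mean of -2.02, and the alternatives ran from -3.56 to -1.87. The neutrophil attractant gene Cxcl2 was at least 3.35-fold lower (adjusted p = 0.00475). For both, the resveratrol channel was well above background on no array. Cxcl3 fell to -1.0 ± 0.11 (moderated SE, n = 4; adjusted p = 0.00422). Cxcr2, the receptor for the neutrophil-attracting members, had no channel well above background, and Cxcr3 and Cxcr4 were at 0.15 ± 0.10 and -0.09 ± 0.08 and were not called.

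Markers of other cells of the mucosa differed by cell type in their direction. For the labelled tissue, all 15 colon epithelium markers were bright enough to be tested, among them Muc2 and Krt8, whereas of the markers of blood and connective tissue cells Mmp8, Icam2, Sele, Pdgfrb and Thy1 had no channel well above background. Of tested markers, 8 of 9 were called lower for neutrophils, 6 of 8 for B and T lymphocytes and 5 of 9 for macrophages. For endothelium 3 of 9 were lower, for fibroblasts 6 of 7 and for smooth muscle 2 of 6, against 19.5% of all genes. For colon epithelium 9 of 15 were higher (60.0%), against 25.6% of all genes, and all 15 means lay above 0 by the brightest probe. Only macrophages (1) and endothelium (2) among the first 6 had any marker called higher. The macrophage marker was C1qc, at 1.22 by its brightest probe, while its other probe was called lower at -0.73. Col1a1, the fibroblast marker not called, was at 0.22 by its brightest probe, and its other probes were called lower at -2.71 and -1.48. In the signal means that follow, each array counts only the markers unflagged on it, so the markers averaged differ between arrays. Mean log2 signal over neutrophil markers lay between 8.28 and 9.96 in resveratrol samples and between 10.03 and 10.7 in the pool channel. Over fibroblast markers it lay between 8.75 and 9.53 in resveratrol samples and between 9.97 and 10.7 in the pool channel. For epithelium it lay between 12.4 and 13.1 in resveratrol samples and between 11.7 and 12.3 in the pool channel. Over endothelial markers, cells that line the vessels, it lay between 9.13 and 9.73 in resveratrol samples and between 9.20 and 9.46 in the pool channel. Lymphocyte markers averaged 8.00 to 8.61 in resveratrol samples and 8.55 to 8.92 in the pool channel, and macrophage markers 9.46 to 10.1 in resveratrol samples and 9.89 to 10.4 in the pool channel. Smooth muscle markers averaged 8.98 to 11.3 in resveratrol samples and 10.8 to 11.4 in the pool channel. The part of these cell types in the globin and platelet ratios was not tested.

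**Figure D5:**
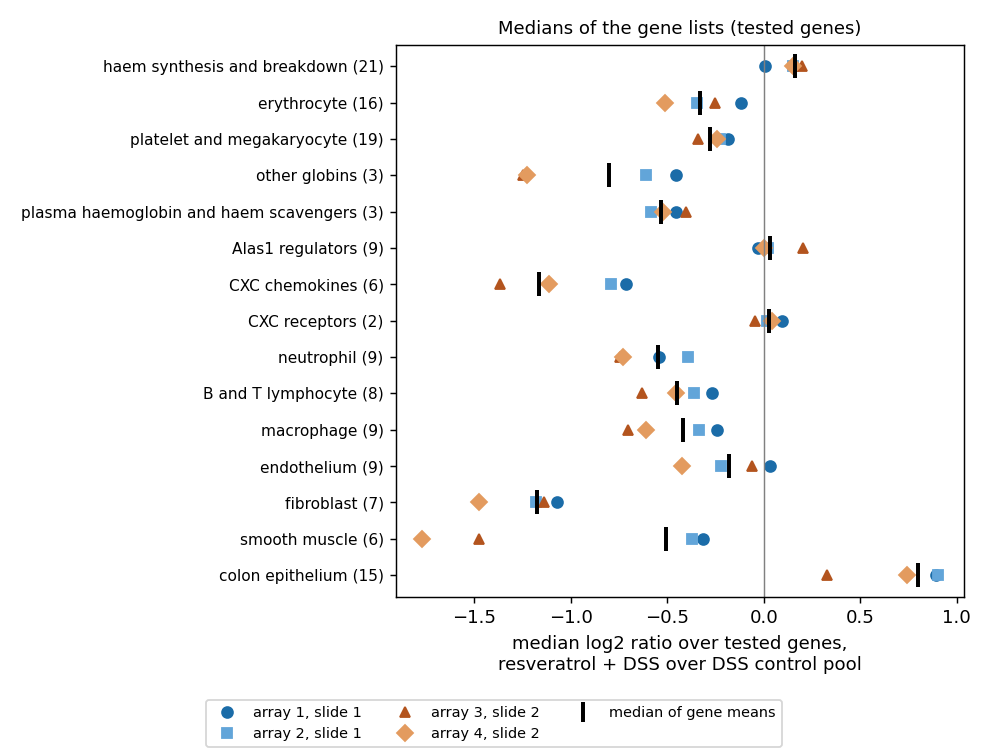
Median log2 ratio of resveratrol + DSS over the DSS control pool across the tested genes of each list (number in brackets), by array over the genes unflagged there, with bars for the median of gene means. Erythrocyte and platelet lists sit at -0.33 and -0.28, between fibroblast genes at -1.18 and colon epithelium at 0.80, and smooth muscle genes separate slide 1 from slide 2.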

How the data were processed

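The 6 genes and all gene lists were chosen with earlier results of these data known. Genes were named by rule: the members with their probes, up to 4 called genes of each list by absolute mean ratio, 7 preset genes, and for 2 members the 3 nearest genes. Other called genes of a list are named to account for its count. Some genes that the rule takes are counted but not reported here.

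Per the file headers, the deposited intensity of each spot was read by Feature Extraction 9.5.3.1 from Agilent, and the headers also give rn3 positions and a log10 ratio per spot that the authors' scanner software computed and that was used for no result. The authors' value table of log2 ratios followed the scanner's ratios at r = 0.98 to 0.99, which settled scale and direction. Its column medians were -0.01, -0.01, 0.09 and -0.02, and its centring is not stated. Per the submitters' processing notes, Agilent Feature Extraction and limma were used.

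Mean signals were corrected with normexp (offset 50) against local background medians and normalized by loess in limma 3.58.1 (R 4.3.3). Weight 0 was given to 1639 control spots (45018 spots in all) and to spots with outlier flags, and replicate spots were averaged. Probes with either channel well above background on 3 or more arrays, and 2 or more values, were tested with lmFit and eBayes, two-sided. Of these, 14227 had 4 values, 1969 had 3 and 2700 had 2. Moderated standard errors borrow spread from all probes. The fit was tested on simulated data. Alternatives were other background corrections, normalizations, dim-probe filters and priors, outlier spots kept, processed signals, the authors' table, each array or slide left out, the slide as a block and a wider standard error. Bounds used loess and Aquantile channel values. Probes were named through RefSeq tables (GRCr8): 10735 by accession, 1200 by gene ID, 126 by another accession, 5536 by symbol and 3703 by synonym, with 19712 unnamed. The submitters' labels do not say whether every array held the same pool.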

Additional observations from a re-analysis of the deposited data

Results flagged for a closer look

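Of 48 genes and members with values on 4 arrays, 3 had 1 array far from the rest, where chance flags about 1 in 20. Cd3e, a T cell receptor subunit gene, stood at -0.61 on array 4, below the other arrays. Col3a1, a collagen gene of fibroblasts, stood at -3.32 on array 4. Eng, an endothelial receptor gene, stood at -0.90 on array 1. None of Hbb-b1, Hbb, Alas1 and Pf4, the members with values on all 4 arrays, was among them.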

How the results depend on the processing

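Hbb-b1, Hbb, Alas2, Ppbp and Pf4 stayed below 0 in every alternative that gave them a value; Pf4 had none in the authors' table and Alas2 none on slide 2 alone. Leaving out each array in turn gave ranges of -3.44 to -3.17 for Hbb-b1, -2.73 to -2.55 for Hbb, -0.68 to -0.64 for Alas2, -0.84 to -0.55 for Ppbp, -0.75 to -0.64 for Pf4 and -0.25 to 0.17 for Alas1. The 4601 higher and 4295 lower probes became 6856 and 1842 under median centring, 2587 and 1975 when both channels had to be bright (well above background) on every array, 3171 and 2800 with processed signals, 749 and 1006 on slide 2 alone, 1460 and 730 with the wider standard error, and 1956 to 4755 and 1421 to 4221 without 1 array. Haem genes (4 higher, 4 lower) became 7 and 1 under median centring, 8 higher in the authors' table, 7 higher with outlier spots kept, 2 higher with both channels bright or the slide as a random block, 2 lower with processed signals, 0 and 0 on slide 2 alone (limma; 4 and 2 at an unadjusted p under 0.05), 1 and 1 with the wider error, and 1 to 4 each without 1 array. Erythrocyte genes (4 higher, 8 lower) became 5 lower with both channels bright or median centring, 2 higher with the slide block, 0 and 3 on slide 2 alone (2 higher unadjusted), 1 and 4 with the wider error, and 0 to 4 and 4 to 8 without 1 array. Platelet genes (2 higher, 8 lower) became 4 and 4 under median centring, 3 lower with both channels bright, 4 higher with outlier spots kept or on slide 1 alone, 5 lower with processed signals or the slide block, 1 and 2 on slide 2 alone or with the wider error, and 1 to 3 and 2 to 7 without 1 array. The number of genes tested changed too. With both channels bright, 16 haem, 13 erythrocyte and 15 platelet genes were tested, in place of 21, 16 and 19. On slide 2 alone these numbers were 15, 12 and 12, and the authors' table held 24 haem genes. Part of a change in count can therefore come from which genes were tested. The causes of these shifts were not tested. No paired analysis was possible because the single group of arrays has no second group with shared replicate numbers. Dim probes such as Pf4 limit any fold to a bound that depends on the processing, and values on 2 arrays (Alas2, Ppbp, Hmox1, Epor) lean most on the spread of other probes.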
